A study of Mus musculus with 2 samples.

Results

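The genes described here are those that encode the subunits of the proteasome, its activators, its inhibitor and its assembly chaperones, measured by long-read RNA sequencing of the mouse calf muscle gastrocnemius. They were chosen by name as the protein-coding genes of the annotation whose symbol starts with Psma, Psmb, Psmc, Psmd, Psme, Psmf or Psmg and a digit. The rule used no measured value and took 50 of 22028 protein-coding genes. Of these, 47 had a read in at least 1 library, and 45 had the 10 reads over both libraries that the comparison between the libraries required. Psmc3ip was taken by its name only: it encodes a recombination factor and not a subunit, and it had 1 read in replicate 1 and 3 in replicate 2.

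Both libraries were made from total RNA of gastrocnemius of female mice aged 14 day of the strain B6CASTF1/J, a first-generation cross of C57BL/6 with CAST, with 2 µg of RNA at the start. They form a single group of 2 biological replicates, so there was no comparison between conditions. The biosample label of replicate 1 speaks of 3 females and that of replicate 2 of a female with no number, under a shared donor identifier, and no source used here says whether animals were pooled. Annotated genes took 1248854 reads in replicate 1 and 1106450 in replicate 2, so that 1 read was worth 0.801 and 0.904 CPM (reads scaled to a fixed total over annotated genes). A count of 0 allows up to 3 reads, or 2.40 and 2.71 CPM. The mean length of the transcript model behind a read was 2347 bases in replicate 1 and 1545 in replicate 2. All 8 fast muscle markers had reads, with 304618 and 222964 CPM in the sum, and 15 immune cell markers summed to 147 and 143 CPM, with Cd3e and Cd79a at 0 in both. Reads carry no molecular identifiers and are not independent molecules, so every interval, floor and p-value taken from them covers counting error only, and every test between replicates 1 and 2 compares those libraries. In bulk tissue, fewer cells of a type and less RNA per cell cannot be told apart.

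The proteasome is the protease of the cytosol and nucleus that degrades proteins tagged with ubiquitin, and in muscle it takes a large part in the turnover of contractile proteins. Its barrel, the 20S core, is built of outer rings of alpha subunits (Psma genes) that gate the entry and inner rings of beta subunits (Psmb genes), of which Psmb5, Psmb6 and Psmb7 carry the peptidase sites. Cells of the immune system, and other cells under interferon, replace these by Psmb8, Psmb9 and Psmb10 to form the immunoproteasome. The 19S particle caps the barrel: its base holds the ring of ATPases that unfold substrates (Psmc genes), and the base and the lid (Psmd genes) bind, deubiquitinate and pass them on. Psme genes encode other caps that activate the core, Psmf1 an inhibitor, and Psmg genes chaperones that assemble the core.

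Together the 50 genes took 5874 reads, 0.470% of the gene reads of replicate 1 (Wilson 95% interval 0.459 to 0.483%), and 6992 reads, 0.632% (0.617 to 0.647%), in replicate 2. The mean share was 0.551% ± 0.114 (SD, n = 2), and the intervals of the libraries did not overlap. By role, the alpha ring took 979 reads in replicate 1 and 1619 in replicate 2, the beta subunits without peptidase activity 526 and 798, and the constitutive catalytic subunits 702 and 972. The ATPases took 1313 and 1462 reads, the other base subunits 667 and 446, and the lid 1403 and 1310. The immunoproteasome subunits took 20 and 46 reads, the chaperones of the 19S particle 68 and 62, the activators and the inhibitor 128 and 153, and the chaperones of the core 67 and 121. As a share of gene reads, only the base subunits other than the ATPases were lower in replicate 2, at 0.0403% against 0.0534%. The lid was nearly equal, at 0.118% against 0.112%, and so were the chaperones of the 19S particle, at 0.00560% against 0.00544%. Every other role group with reads took a larger share in replicate 2. For the activators and the inhibitor the Wilson intervals of the libraries overlapped, at 0.00862 to 0.0122% in replicate 1 and 0.0118 to 0.0162% in replicate 2.

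Among the alpha subunits, Psma7 had 197 reads (158 CPM) in replicate 1 and 504 (456 CPM) in replicate 2. Psma3 had 284 reads (227 CPM) and 415 (375 CPM), and Psma2 113 and 225. Psma4, the lowest of the ring by CPM, had 74 reads (59.3 CPM) and 79 (71.4 CPM). All 7 alpha subunits of the constitutive core were read in both libraries, each more often in replicate 2. Psma8, the testis form of Psma7, had 0 reads in both libraries, which is not detectable at this depth rather than absent. Of the beta subunits without peptidase activity, Psmb1 had 186 reads in replicate 1 and 267 in replicate 2, Psmb2 150 and 230, Psmb3 126 and 220, and Psmb4 64 and 81. In this group too each gene had more reads in replicate 2.

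The constitutive catalytic genes stood in the same order in both libraries. Psmb6, which cleaves after acidic residues (the caspase-like site), had 382 reads (306 CPM) in replicate 1 and 568 (513 CPM) in replicate 2. Psmb5, the chymotrypsin-like subunit, had 217 reads (174 CPM) and 260 (235 CPM), and Psmb7, the trypsin-like subunit, 103 (82.5 CPM) and 144 (130 CPM). Per kilobase of transcript model, the scale used here to compare levels between genes, Psmb6 stood at 393 and 659 CPM, Psmb5 at 194 and 262, and Psmb7 at 72.1 and 114. The levels per kilobase of these 3 genes did not overlap over the 2 libraries.

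In the 19S base, the ATPase gene Psmc3 had 416 reads (333 CPM) in replicate 1 and 612 (553 CPM) in replicate 2. Psmc5 had 267 reads and 264, Psmc1 238 and 257, and Psmc2, the lowest of the ring by CPM, 102 and 73. With all reads, Psmc3 differed most of the 6 ATPase genes between the libraries, and with full splice reads Psmc1 and Psmc3 had nearly equal values, a log2 ratio of replicate 1 over replicate 2 of -0.745 and -0.741. Psmd2, a scaffold of the base that also binds ubiquitin-like domains, had 341 reads (273 CPM) and 192 (174 CPM). Psmd4, a receptor for ubiquitin chains, had 166 and 170 reads, and the scaffold Psmd1 160 and 84. Psmd2 and Psmd1 were read more often in replicate 1. In the lid, Psmd8 had 234 reads (187 CPM) in replicate 1 and 312 (282 CPM) in replicate 2, Psmd12 286 and 242, Psmd6 223 and 227, and Psmd14, the deubiquitinating enzyme of the lid, 79 (63.3 CPM) and 77 (69.6 CPM).

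The genes for accessory factors were read less often. Of the chaperones that assemble the 19S base, Psmd9 had 26 reads in replicate 1 and 25 in replicate 2, Psmd5 30 and 20, and Psmd10 12 and 17. Among the caps, Psme2 and Psme1 form the interferon-inducible activator PA28: Psme2 had 31 reads and 68, and Psme1 16 and 28. Psme3, the nuclear form of this activator, had 32 reads and 20, the inhibitor gene Psmf1 31 and 25, and the large activator gene Psme4 18 and 12, while Psme2b had 0 reads in both. The core chaperones had 25 and 50 reads for Psmg4, 22 and 34 for Psmg2, 15 and 24 for Psmg1, and 5 and 13 for Psmg3. All 4 core chaperones had more reads in replicate 2. The 4 annotated pseudogenes named after beta subunits (of Psmb5, Psmb6 and Psmb7) had 0 reads in both libraries.

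**Figure D1:**
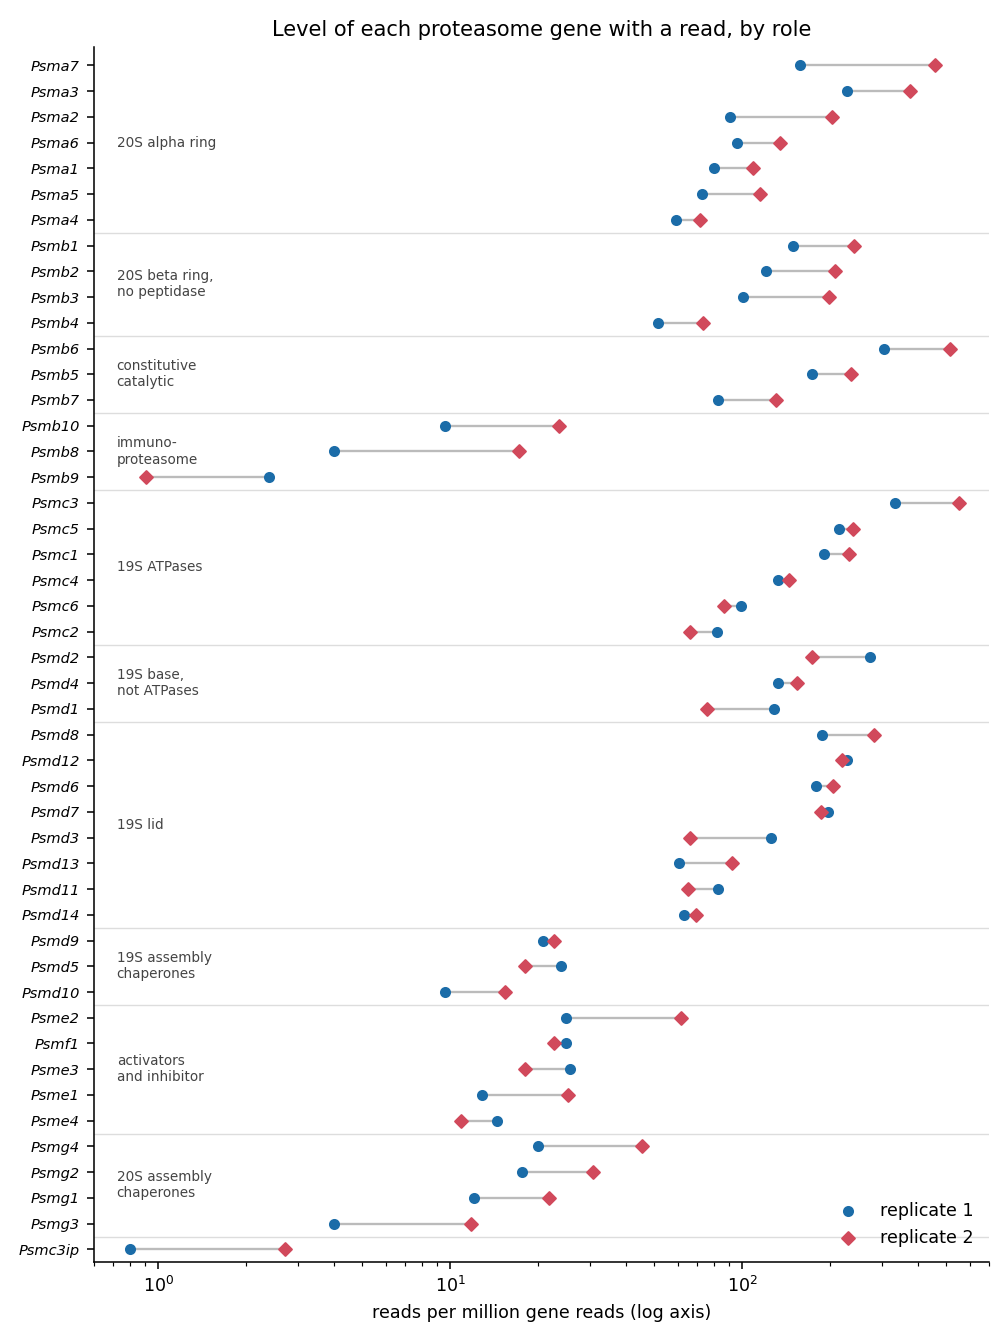
Level in CPM (log axis) of the 47 genes with a read in each of the 2 libraries, grouped by role; each gene has 1 point per library. Psmc3, Psmb6 and Psma7 lie highest in replicate 2 at 553, 513 and 456 CPM, and the immunoproteasome genes lie at 23.5 CPM or below.

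Levels were unequal among the subunits of each particle. Over the 14 constitutive subunits of the core the mean CPM of both libraries ran from 62.2 for Psmb4 to 409.6 for Psmb6, a 6.58-fold range with a coefficient of variation of 59.5%. Per kilobase of model length the range was 10.3-fold, from 50.9 for Psma2 to 526 for Psmb6, with a coefficient of variation of 84.1%. Below Psmb6 on this scale came Psma7 at 336 and Psmb5 at 228, while Psmb4 at 53.7, Psma4 at 53.4 and Psma2 at 50.9 were the lowest. The order of these last 3 turned around between the libraries, with Psma2 at 31.4, Psmb4 at 44.2 and Psma4 at 48.4 in replicate 1 and at 70.5, 63.2 and 58.3 in replicate 2. Over 17 subunits of the 19S particle the mean CPM ran from 66.4 for Psmd14 to 443 for Psmc3, a 6.67-fold range, and per kilobase 10.1-fold, from 26.9 for Psmd11 to 272 for Psmc3. The lowest CPM of a single library belonged to other genes, Psmd13 at 60.9 in replicate 1 and Psmd11 at 65.1 in replicate 2. The next levels per kilobase were close to each other, at 173 for Psmd8 and 172 for Psmc5. Psmb6 and Psmc3 headed their particle in both libraries and on both scales. Model lengths are those of the full splice models, annotated or not, and the ends of single reads were not in the files. A long model thus lowers a level per kilobase whatever part of it was read.

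Of the 45 genes tested between the libraries, 11 (24.4%) were called higher in replicate 2 and 0 in replicate 1, by Fisher's exact test on reads with Benjamini-Hochberg adjustment over 8973 genes and a ratio of at least 2-fold. Over all genes tested, 11.4% were called higher in replicate 2 and 8.87% in replicate 1. The log2 ratio of replicate 1 over replicate 2 had a median of -0.77 over the 45 genes, 37 of them below 0. Over all genes the median was 0.01, with 4467 of 8973 below 0. The called genes were 3 alpha subunits, 3 constitutive beta subunits, 2 immunoproteasome subunits, the ATPase Psmc3, the activator Psme2 and the core chaperone Psmg4. Within the core all 14 constitutive subunits had a ratio below 0, with a median of -0.96 and 6 calls. In the 19S particle 12 of 17 did, with a median of -0.41 and 1 call. With the trend of the ratio over model length removed, as below, the median was -0.028 in the core, with 9 of 14 below 0. It was then 0.027 in the 19S particle, with 8 of 17 below 0. Of all genes 4426 of 8973 then lay below 0. Whether the core and the 19S particle differ in their ratios was not tested.

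With 197 and 504 reads, Psma7 had a log2 ratio of -1.81 (exact 95% counting interval -2.06 to -1.58, adjusted p = 7.03e-39). Psma2 had a log2 ratio of -1.45 (-1.79 to -1.12, adjusted p = 8.62e-12) and Psma3 of -1.01 (-1.23 to -0.79, adjusted p = 8.94e-10). Among the beta subunits Psmb3 stood at -1.26 (-1.59 to -0.94, adjusted p = 8.45e-09), Psmb2 at -1.07 (-1.38 to -0.77, adjusted p = 1.44e-06) and Psmb6 at -1.03 (-1.22 to -0.84, adjusted p = 5.61e-14). The counting intervals of Psma7 and Psma2 lay wholly past a 2-fold difference, and those of the other 9 called genes did not. Psmc3 had a log2 ratio of -1.02 (-1.20 to -0.84, adjusted p = 1.92e-14), Psme2 of -1.58 (-2.26 to -0.96, adjusted p = 0.000136) and Psmg4 of -1.44 (-2.22 to -0.74, adjusted p = 0.0036). The genes higher in replicate 1 by adjusted p alone, with ratios under 2-fold, were the large subunits Psmd3 at 0.64, Psmd1 at 0.47 and Psmd2 at 0.37. By adjusted p alone 3 genes were thus called higher in replicate 1 and 18 in replicate 2, where 18.8% and 13.3% of all genes were. With full splice reads only, 13 of 43 genes tested were called higher in replicate 2 and 0 in replicate 1, against 11.4% and 10.7%.

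Transcript length moved with these ratios. Of the 9 genes with a model length over 500 and up to 1000 bases, 7 were called higher in replicate 2, with a median log2 ratio of -1.44, and of the 764 genes of the same length among all genes 53.5% were called, with a median of -1.29. The 15 genes of over 1000 and up to 1500 bases had a median of -0.80 and 0 calls, against -0.63 and 16.4% in all genes of that length. Between 1500 and 2000 bases 9 genes had a median of -0.57 and 2 calls, against -0.22 and 7.77% in all genes of that length, and between 2000 and 3000 bases 8 genes had a median of -0.02 and 2 calls, against 0.17 and 5.05%. With the trend of the ratio over model length removed, 3 genes were called higher in replicate 2 (Psma2 at -1.73, Psma3 at -1.22 and Psmb8 at -1.94) and 0 in replicate 1, where 6.17% and 3.01% of all genes were called, and the median of the 45 genes was -0.17. Psmb2, Psmb6 and Psmg4 then lay slightly above 0, at 0.049, 0.19 and 0.13. The remaining genes called before lay below 0 and under the 2-fold limit. They were Psma7 at -0.76, Psmc3 at -0.70, Psme2 at -0.58, Psmb10 at -0.57 and Psmb3 at -0.012. Psma2 and Psma3 have the longest mean model lengths of the core, 2886 and 2661 bases, and what part of these models was read is not known. Psmb8 had few reads, and 13 of its 19 in replicate 2 lacked the splicing of the gene, as given below. With a trend over coding length instead, an alternative chosen after seeing the data, the 6 calls, all higher in replicate 2, were Psma2, Psma7, Psmb8, Psmb10, Psmc3 and Psme2, where 5.47% of all genes were called higher in replicate 2 and 4.16% in replicate 1. Psma3 then stood at -0.68 and was not called. Scaling by total reads in place of TMM (trimmed mean of M-values) changed the ratios and not the p-values, since Fisher's test used total reads in both. It moved the median of all genes by 0.27 on the log2 scale. It left 6 calls, all higher in replicate 2 (Psma2, Psma7, Psmb8, Psmb10, Psme2 and Psmg4), where 9.0% of all genes were called in that direction and 12.5% in the other. edgeR's exact test with the spread between these libraries as its dispersion called 0 of the 45, had 0 with an unadjusted p under 0.05, and called 7 of all genes, 0.078%, higher in replicate 2 and 0.0% in replicate 1. Its dispersion holds the same difference that it tests, so it could call few genes, and no conclusion is drawn from its count.

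The immunoproteasome genes were read rarely. Psmb10 had 12 reads (9.61 CPM) in replicate 1 and 26 (23.5 CPM) in replicate 2, Psmb8 5 (4.00 CPM) and 19 (17.2 CPM), and Psmb9 3 (2.40 CPM) and 1 (0.904 CPM). Psmb10 was the most read of them in both libraries, and Psmb9 lay at or under the limit that 3 reads set. Psmb11, the thymus form of Psmb5, had 0 reads in both. Psmb8 was called higher in replicate 2 at a log2 ratio of -2.26 (-4.16 to -0.92, adjusted p = 0.00768, Fisher's exact test) and Psmb10 at -1.53 (-2.70 to -0.54, adjusted p = 0.0313). Of the reads of Psmb8, 1 in replicate 1 and 13 in replicate 2 were of the class Genomic, models that overlap a gene without its splicing. Reads of Psmb8 with a full splice chain numbered 4 and 6, and with full splice reads only the gene was not called (log2 ratio -1.15, adjusted p = 0.517).

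Against the constitutive catalytic subunits, the 3 immunoproteasome genes made up 20 of 722 reads, 2.77% (1.80 to 4.24%), in replicate 1 and 46 of 1018, 4.52% (3.40 to 5.97%), in replicate 2. The difference between the libraries missed the 0.05 threshold (Fisher's exact test, two-sided, p = 0.0739), and the mean was 3.64% ± 1.24 (SD, n = 2). With full splice reads only the shares were 2.30% and 3.38% (Fisher's exact p = 0.236), and without the Genomic class reads of Psmb8, an alternative chosen after seeing the data, the exact p was 0.478. By site the shares, which are of reads with no correction for length, were unequal. Psmb10 made up 10.4% (6.07 to 17.4%) of the reads of its pair with Psmb7 in replicate 1 and 15.3% (10.7 to 21.5%) in replicate 2. Psmb8 made up 2.25% (0.966 to 5.16%) and 6.81% (4.40 to 10.4%) of its pair with Psmb5, and Psmb9 0.779% (0.265 to 2.27%) and 0.176% (0.0310 to 0.989%) of its pair with Psmb6. With full splice reads only, Psmb8 made up 1.83% (0.716 to 4.62%) and 2.36% (1.09 to 5.06%), and Psmb10 8.91% (4.76 to 16.1%) and 17.2% (12.0 to 24.2%). In each library, with all reads and with full splice reads, the interval of the Psmb10 pair lay above that of the Psmb8 pair. Only 6 of 9 and 11 of 25 full splice reads of Psmb10 were of its coding form Psmb10-201. Forms annotated as retained introns took 2 and 6 reads (Psmb10-207) and 1 and 6 (Psmb10-205). Beside Psmb10-201 the coding form Psmb7-201 had 90 and 116 reads. Psmb8-201 had 4 and 6 reads beside 211 and 246 of Psmb5-201. No interval was taken over coding forms, and whether the order of the pairs holds for them alone was not tested. Between the libraries, 3 pairs were compared, with two-sided Fisher's exact p of 0.0199 for Psmb8 (0.0597 with Benjamini-Hochberg adjustment over the 3), 0.288 for Psmb10 and 0.309 for Psmb9 (both 0.309 adjusted). The exact p of the Psmb8 pair was 0.759 with full splice reads. The 15 immune cell markers summed to nearly equal CPM in both libraries, as given above, and their part in these shares was not tested.

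**Figure D2:**
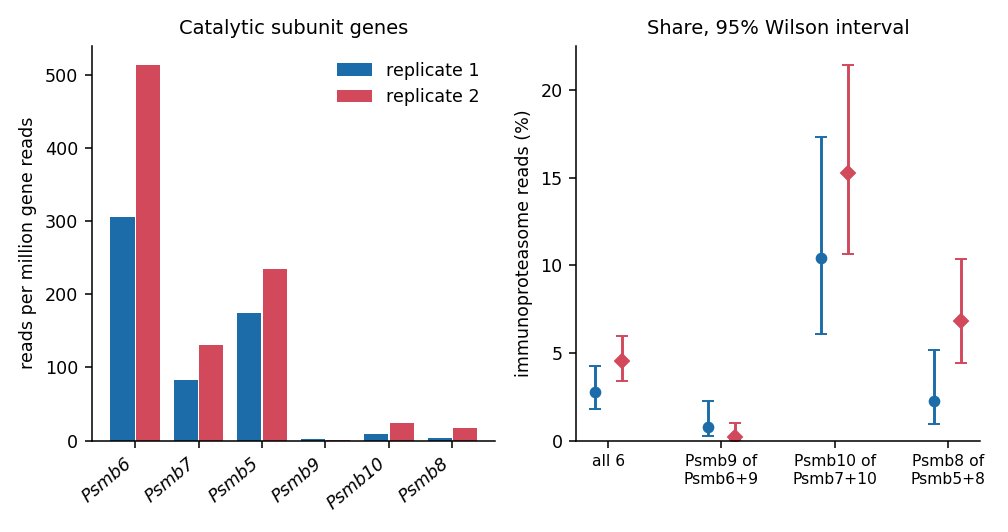
Levels of the catalytic subunit genes and the immunoproteasome percent of reads within each pair and over all 6 genes, per library; bars on the shares are Wilson 95% intervals. The pair with Psmb10 has the highest share in both libraries, 10.4% and 15.3%.

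How much of the transcript a read held differed between these genes. Incomplete splice matches (ISM) are, by the tables' class, models that match a part of an annotated transcript, among them models of a single exon with no intron. In the 31 proteasome genes with at least 50 full splice or ISM reads in each library, the median share of such reads was 3.30% in replicate 1 and 6.44% in replicate 2, against 3.36% and 4.94% over 1690 genes. Reads with every junction of an annotated coding sequence made up a median of 92.6% and 86.2% in the 31 genes, against 90.5% and 84.3% over 1732 genes. The proteasome genes lay near the medians of all genes on both measures. Some genes stood apart. In Psma7 25.1% of these reads were ISM in replicate 1 and 52.8% in replicate 2, and a single model of 4 exons at the 3′ end held 47 reads (23.9% of the gene) and 264 (52.4%). In Psmc3 the ISM share was 12.3% and 37.9%, and a model of the last exon alone, 179 bases, held 37 reads (8.89%) and 212 (34.6%). Both genes are among those called higher in replicate 2. With full splice reads only, Psma7 was still called (log2 ratio -1.39) and Psmc3 was not (-0.74). With all reads and the length trend removed neither was called, at -0.76 for Psma7 and -0.70 for Psmc3.

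Psmd3 had ISM shares of 10.4% and 31.5%, Psma4 of 6.76% and 29.1%, and Psmd1 of 20.0% and 31.0%. In each of these the higher share was in replicate 2. Psmd1 held a model of the first 22 exons with 20 reads and 10, a 5′ part of the transcript, whereas the recurrent models of Psma7, Psmc3 and Psmc1 (10 exons, 28 and 29 reads) were 3′ parts. The few reads of Psme4, whose annotated transcript is among the longest of the set, were ISM in 52.9% and 90.9%.

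**Figure D3:**
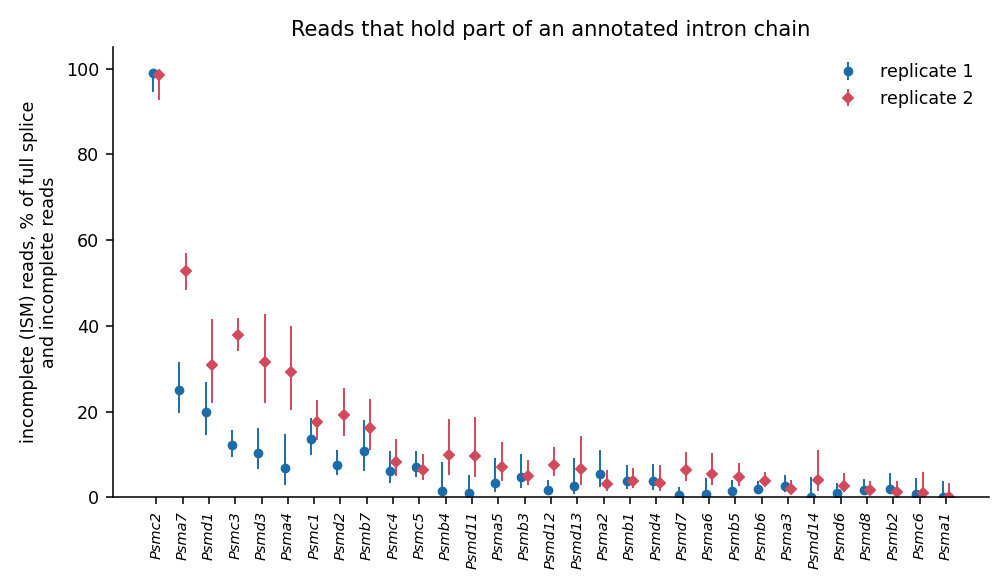
Percent of ISM reads among full splice and ISM reads in replicates 1 and 2 for the 31 genes with at least 50 such reads in each library. Psmc2 stands at 99.0% and 98.6%, Psma7 and Psmc3 are far higher in replicate 2, and most other genes lie under 10% in both.

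Psmc2 was read almost only without its annotated first exon. The annotated chain had a single read in each library, and 101 of 102 full splice and ISM reads (99.0%) in replicate 1 and 72 of 73 (98.6%) in replicate 2 were ISM. One model of 12 exons that starts at the annotated second exon held 97 reads (95.1% of the gene) and 67 (91.8%). It holds every junction of the coding sequence, since the annotated first exon, chr5:21785283-21785517 on mm10, plus strand, lies before the coding start at 21786689, within the second exon, chr5:21786650-21786884. RefSeq gives 2 starts for the gene, at 21785275 and at 21786747. The table of RefSeq promoters (GRCm38.p6) covers both places, and the 150 bases before the first RefSeq start and before the annotated second exon are shown, because the models of nearly all reads start at the second exon. Capitals mark CTTCCGG, the motif CCGGAAG read on the other strand.
Psmc2, chr5:21785125-21785274, before the first start: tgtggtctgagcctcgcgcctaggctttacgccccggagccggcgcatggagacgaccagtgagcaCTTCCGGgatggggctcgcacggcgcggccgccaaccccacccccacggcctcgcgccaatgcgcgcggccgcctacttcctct
Psmc2, chr5:21786500-21786649, before the second exon: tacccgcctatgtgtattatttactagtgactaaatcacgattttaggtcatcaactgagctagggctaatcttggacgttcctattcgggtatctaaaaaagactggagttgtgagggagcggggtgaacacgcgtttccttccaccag

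The first window holds the motif and the second does not. The files give the start of a model and not of a read, so where in the second exon the reads began cannot be told from them.

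Most proteasome genes were spliced in 1 way. In 29 genes with at least 50 full splice reads in each library and at least 2 chains (a chain is the set of introns of a transcript), the most read chain held a median of 96.6% of full splice reads in replicate 1 and 97.4% in replicate 2. It held at least 90% in both libraries in 23 of the 29 (79.3%), and in 58.7% of the 1425 genes tested. Its share was called different between the libraries in 0 of the 29 (Fisher's exact test with Benjamini-Hochberg adjustment, lowest adjusted p = 0.350) and in 51 of the 1425, 3.58%. Unadjusted, 2 of the 29 had an exact p under 0.05, Psmb6 at 0.0473 and Psmd14 at 0.0245, and so did 141 of the 1425.

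Psmd4 was the one with 2 chains at near equal levels. Psmd4-202 had 82 of 156 full splice reads (52.6%, Wilson 95% interval 44.8 to 60.2%) in replicate 1 and 73 of 144 (50.7%, 42.6 to 58.7%) in replicate 2, and Psmd4-201 68 (43.6%) and 67 (46.5%). They differ by 9 bases at the 3′ end of an exon, chr3:95033909-95033917 on the minus strand, which an alternative donor site adds to Psmd4-201. The 9 bases lie in the coding sequence and keep the frame. The sequence across the junction is given from the GENCODE M21 transcripts, with 30 bases on each side and the 9 bases in capitals, because both forms were read about equally often.
Psmd4-201: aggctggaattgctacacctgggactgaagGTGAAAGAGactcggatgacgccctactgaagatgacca
Psmd4-202: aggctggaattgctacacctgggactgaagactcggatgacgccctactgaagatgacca

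Psmg4 had a cassette exon. Of the reads that inform on the 76-base exon at chr13:34166061-34166136, plus strand, 16 of 24 (66.7%) in replicate 1 and 36 of 50 (72.0%) in replicate 2 included it. The chain without it, Psmg4-201, had 8 reads and 14. Both forms are annotated as protein coding, and 76 bases are not a multiple of 3. The exon is given in capitals with 30 bases of its neighbours on each side.
Psmg4 exon: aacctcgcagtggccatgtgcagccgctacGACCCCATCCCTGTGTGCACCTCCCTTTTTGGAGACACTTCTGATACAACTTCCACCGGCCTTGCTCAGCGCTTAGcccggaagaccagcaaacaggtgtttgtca

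Of 288 internal exons of the proteasome genes that at least 20 reads informed on in both libraries, 24 had a read that skipped them, and 2 of these were at 10 to 90% inclusion in both libraries: this one and an exon of Psmd9. Over the 4051 exons of all genes with such a read 10.2% lay in that range. Inclusion was called different between the libraries in 0 of the 24 (Fisher's exact test with Benjamini-Hochberg adjustment, 0 with an unadjusted p under 0.05) and in 0.173% of all.

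In Psmb6 the chain Psmb6-202, annotated as a retained intron, had 50 of 375 full splice reads (13.3%) in replicate 1 and 99 of 546 (18.1%) in replicate 2. Its single junction is also a junction of the main chain Psmb6-201, so a read of it may hold only a part of the main chain's introns. The same holds for Psmb3-202, with 3 reads and 15, for Psmd11-214, with 7 and 2, and for Psmb10-207 (2 and 6 reads) and Psmb10-205 (1 and 6), beside 6 and 11 reads of the coding chain Psmb10-201. In Psmd10, 6 and 15 reads were of Psmd10-201 and 5 and 2 of Psmd10-202, which lacks 79 bases at the 3′ end of an exon. Neither Psmb10 nor Psmd10 had enough full splice reads to enter the test. Psma3-201, annotated as subject to nonsense-mediated decay, had 15 reads (5.64%) and 13 (3.69%). It lacks 5 bases at the start of an exon, chr12:70983319-70983323, plus strand, which are shown in capitals since they shift the frame.
Psma3: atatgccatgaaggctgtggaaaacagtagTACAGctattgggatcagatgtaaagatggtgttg

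**Figure D4:**
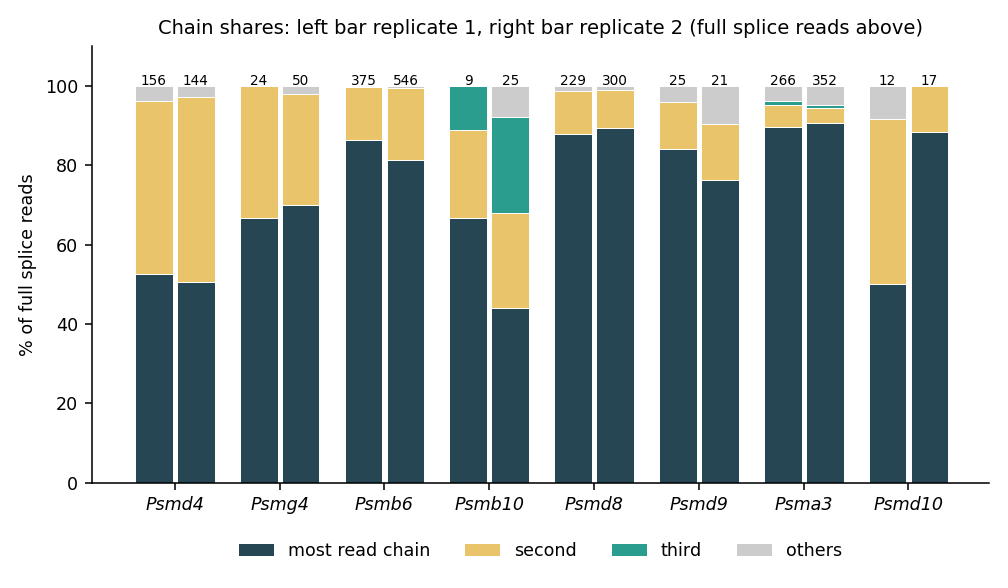
Percent of full splice reads in each chain of Psmd4, Psmg4, Psmb6, Psmb10, Psmd8, Psmd9, Psma3 and Psmd10; the left bar of each gene is replicate 1, the right bar replicate 2. Psmd4 is divided nearly equally between its chains in both libraries, and Psmd8 holds an unannotated chain at 10.9% and 9.67%.

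Unannotated chains were a small part of the reads of the proteasome genes. There were 175 of them with 151 reads in replicate 1 and 157 in replicate 2, which is 2.79% and 2.67% of the full splice reads of these genes. Over all genes unannotated chains took 21.5% and 10.7% of the summed full splice reads, a share in which the genes with the most reads weigh most. Of the 175 chains 23 were found in both libraries, 6 with at least 2 reads in each, and 1 with at least 5 in each.

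That chain belongs to Psmd8, a lid subunit. It had 25 of 229 full splice reads (10.9%, Wilson 95% interval 7.505 to 15.6%) in replicate 1 and 29 of 300 (9.67%, 6.82 to 13.5%) in replicate 2. A single new junction takes the place of 3 annotated ones, so that 210 bases of Psmd8-202 in 3 stretches of 34, 103 and 73 bases are missing, at chr7:29177198-29177231, chr7:29178919-29179021 and chr7:29179143-29179215 on the minus strand. The 210 bases lie within the coding sequence and are a multiple of 3. They are given in capitals, with 30 bases on each side, because this is the most read unannotated form of the set.
Psmd8: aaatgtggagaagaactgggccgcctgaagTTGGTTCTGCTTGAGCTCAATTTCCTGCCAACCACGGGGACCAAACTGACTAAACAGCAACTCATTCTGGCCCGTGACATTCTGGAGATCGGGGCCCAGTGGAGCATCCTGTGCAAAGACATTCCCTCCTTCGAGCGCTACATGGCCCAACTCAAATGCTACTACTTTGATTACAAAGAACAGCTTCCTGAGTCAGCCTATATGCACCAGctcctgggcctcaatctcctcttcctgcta

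In Psmd9 a chain that skips an annotated exon of 103 bases, chr5:123234594-123234696, plus strand, had 3 reads in each library, so that the exon was included in 88.0% and 85.7% of informative reads. The skip is not a multiple of 3. In Psma5, 3 reads and 7 were of a chain whose first exon ends at position 108226857 of chromosome 3, upstream of the first exon of the main chain. These numbers leave wide intervals: 4.17 to 29.96% and 4.98 to 34.6% for the Psmd9 chain. The Psmd9 exon is given in capitals with 30 bases on each side, as the other exon of the set at an intermediate level.
Psmd9: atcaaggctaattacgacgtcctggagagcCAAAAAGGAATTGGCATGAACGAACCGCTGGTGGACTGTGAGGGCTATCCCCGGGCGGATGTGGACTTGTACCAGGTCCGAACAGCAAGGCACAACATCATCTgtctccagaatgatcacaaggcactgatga

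Reads of the class Genomic were few in most of the genes and were concentrated in replicate 2 where they were not. Psma3 had 11 such reads in replicate 1 and 56 in replicate 2, Psmd13 0 and 25, Psmd4 4 and 21, and Psmb8 1 and 13. Full splice reads numbered 74 and 72 in Psmd13, 266 and 352 in Psma3, and 156 and 144 in Psmd4. Scaled by their own totals and TMM factors, they gave log2 ratios of -0.64, -1.09 and -0.57. With all reads the ratios were -0.88, -1.01 and -0.49. Psmb2, with 0 Genomic reads in both libraries, went from -1.07 to -1.31, so ratios with all and with full splice reads do not share a baseline. The effect of leaving out Genomic reads alone was not tested. The whole library of replicate 2 also held a larger share of reads at unannotated loci, 4.68% against 1.60%.

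Promoters of 42 of the 50 genes were in the RefSeq table (GRCm38.p6), as windows of 250 bases before to 50 bases after a start, and motifs were searched on both strands. CCGGAAG, the core bound by factors of the ETS family, was in the windows of 15 of the 42 genes (35.7%) and of 9.93% of the 27025 genes of the table. Its holders were Psma6 as the single core subunit, Psmc1, Psmc2 and Psmc6 among the ATPases, Psmd2, Psmd4, Psmd6, Psmd11, Psmd12 and Psmd13 in the rest of the 19S particle, and Psme3, Psme4, Psmg1 and Psmg3 among the accessory genes, with Psmc3ip. TGACNNNGC, the core of the antioxidant response element to which the proteasome regulator Nfe2l1 binds, was in 6 (14.3%: Psmb5, Psmb6, Psmc6, Psmd9, Psmd12 and Psme4), against 14.0% of the table. CCAAT was in 15 (35.7%) against 41.1%, TATAAA in 4 (9.52%) against 15.7%, and TGAGTCA in 1 (2.38%) against 5.95%. A match is only a run of letters in the window.

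Genes that work with these were compared between the libraries in the same fit. Of the proteasome parts whose names fall outside the pattern, 3 of 8 were called higher in replicate 2 and 1 in replicate 1, where 11.4% and 8.87% of all genes were called. The lid subunit Sem1 had 207 reads in replicate 1 and 417 in replicate 2, the assembly factor Pomp 155 and 337, and the deubiquitinase Usp14 51 and 91, while the ligase Ube3c had 49 and 17. Sem1, Pomp and Usp14 were also called with the length trend removed, where 6.17% of all genes were called higher in replicate 2. Ube3c was not called with that trend removed. Usp14 was not called with full splice reads only (log2 ratio -0.13, against -1.29 with all reads). Ecpas, another of these parts, was called higher in replicate 1 with full splice reads only (1.08), where 10.7% of all genes were. With all reads Ecpas was not called (0.99), nor with the length trend removed (0.55).

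Of the muscle ubiquitin ligases 6 of 11 were called higher in replicate 1 and 0 in replicate 2, where 8.87% and 11.4% of all genes were. Fbxo32 had 49 reads and 9, Trim63 235 and 77, and Trim32 33 and 6. These 3 were also called with the length trend removed, where 3.01% of all genes were called higher in replicate 1. Nedd4 (352 and 115), Mdm2 (53 and 16) and Fbxo21 (29 and 7) were not. The activating enzyme Uba1 was called higher in replicate 1 (190 and 62), and so was Erap1 (16 and 3), 1 of 6 genes of antigen presentation by MHC class I; neither was with the trend removed. Of 9 shuttle and segregase genes and of 4 regulators 0 were called: Vcp (639 and 290) and Nfe2l1 (319 and 124) passed the adjusted p of Fisher's exact test and not the 2-fold limit. Nfe2l1 (log2 ratio 1.34), Nploc4 (1.04) and Ddi2 (1.57) were called higher in replicate 1 when only full splice reads were used, where 10.7% of all genes were. With all reads and the length trend removed, Nfe2l1 stood at 0.40, Nploc4 at 0.42 and Ddi2 at 0.12, and none of them was called. Of the other marker lists, endothelial genes summed to 274 and 168 CPM, erythroid genes to 1822 and 1553 CPM and fibroblast genes to 7980 and 3454 CPM in replicates 1 and 2, and their part in the results above was not tested.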

How the data were processed

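Long-read RNA-seq of 2 libraries of 1 group was analysed. The authors deposited, for each library, raw read counts per transcript model, per the file headers, with an annotation file of the models' exons, whose attributes name TALON, software for matching long reads with transcript models. Per the notes beside the files the assembly is mm10 and the annotation GENCODE M21. The aligner, the platform, TALON's version and whether counting used strand are not named in any source used here, so reads of overlapping antisense genes may not be told apart. The other 2 columns used from the tables are model lengths and classes. Coordinates count from 1.

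Gene reads were summed over the models assigned to each annotated gene, without spike-ins (3.57 and 3.43% of reads) and unannotated loci (1.60 and 4.68%). CPM use the total over annotated genes. CPM per kilobase use the mean length of the full splice models of a gene, weighted by reads and averaged over the libraries. Genes without full splice reads took the mean over all their models. ISM and Genomic reads thus count in the CPM and not in this length. Genes reaching 10 reads over both libraries were compared by a two-sided Fisher exact test (scipy 1.17.1) with Benjamini-Hochberg adjustment over all genes tested. The test set the reads of a gene against all other gene reads of each library, without TMM scaling. Called genes had an adjusted p below 0.05 and a 2-fold ratio of CPM scaled by TMM (edgeR 4.0.16, prior count 0.5). Alternatives used DESeq2 1.42.0 size factors, edgeR's exact test with a common dispersion, and lowess trends over length (statsmodels 0.14.6). Over full splice reads or Known models alone, totals and TMM factors were taken anew. Where a trend was removed, a two-sided binomial test took the place of Fisher's. Shares have Wilson 95% intervals and log2 ratios exact binomial ones. The log2 ratios and their intervals are scaled by TMM and Fisher's test is not, so an interval and its adjusted p refer to different baselines. Chains were compared in genes with at least 50 full splice reads in each library and internal exons with at least 20 informative reads. The tests were tested on simulated data with counting error only. Spread between libraries beyond counting was not simulated. Sequences came from the GENCODE M21 transcripts and RefSeq's promoter table (GRCm38.p6).

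The genes, lists and tests were chosen with earlier results of these data known. Values per library are printed for the catalytic genes of both kinds, Psmb11 and Psma8, the 3 highest and the lowest gene of each role group, every gene called, genes with at least 2 chains at 5% or more of full splice reads in both libraries, and exons at 10 to 90% inclusion. Of other pathway lists, called genes and some of the most read are named. Genes named for incomplete, Genomic class or antisense reads and Psmd13 were chosen after their values were seen. Alignments of protein sequences were not made, and Paaf1, a proteasome chaperone listed with the other parts, was not analysed. The list of ubiquitin genes is not reported here.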

Additional observations from a re-analysis of the deposited data

Results flagged for a closer look

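Reads of models on the opposite strand lie outside the counts of the proteasome genes. Models of the antisense class that overlap one of these genes held 14 reads in replicate 1, over 6 genes, and 87 reads in replicate 2, over 17 genes, with 18 genes in all. Psmd11, a lid subunit, had the most, with 7 reads in replicate 1 and 22 in replicate 2, beside 103 and 72 reads of the gene itself. Next came Psme4 with 2 and 16 and Psmd2 with 2 and 6. There are no control samples. In replicate 1 only Psmd11 was above the 3 reads that a count of 0 allows for a single gene. The whole of replicate 2 also had more reads at unannotated loci, and the part of that in these reads was not tested.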

How the results depend on the processing

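The count of genes called higher in replicate 2, 11 in the comparison as reported, was 6 with scaling by total reads, 3 with the trend over model length removed, 18 with adjusted p alone (and then 3 higher in replicate 1), 0 by edgeR's exact test and 6 with the trend over coding length removed, an alternative chosen after seeing the data. The dispersion of edgeR's test came from the same libraries that it compared, so it could call few genes. Under DESeq2's size factors, no minimum of reads, a minimum of 50 reads, full splice reads or Known models the count stayed within 1.5 times. In that order it was 11 of 45, 10 of 47, 9 of 38, 13 of 43 and 11 of 43 genes tested. Of all genes 11.5%, 6.09%, 19.9%, 11.4% and 10.5% were then called higher in replicate 2. With a minimum of 50 reads the share of all genes was thus closer to that of the proteasome genes. With the trend over model length removed, Psmb2, Psmb6 and Psmg4 changed sign, to 0.049, 0.19 and 0.13. The coefficient of variation of the core rose to 84.1% per kilobase. The range of the core was 10.3-fold per kilobase and 7.61-fold with full splice reads, and that of the 19S particle 10.1-fold and 373-fold, the last because Psmc2 keeps a single full splice read per library. The median share of the most read chain, 97.1%, was 99.3% over Known chains, which are fewer by construction, and 1 unannotated chain had at least 5 reads in each library where 6 had at least 2.

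With 1 replicate left out at a time, the share of gene reads ran from 0.470 to 0.632%, the immunoproteasome share from 2.77 to 4.52%, the coefficient of variation from 56.5 to 63.3% (core) and 47.7 to 71.2% (19S), the range from 5.97-fold to 7.19-fold (core) and 5.47-fold to 8.50-fold (19S), the top chain share from 96.6 to 97.4% and the ISM share from 3.30 to 6.44%. No paired analysis was possible because the 2 libraries form a single group. Protein identity was not run for want of sequences here. Depth limits the genes under about 50 reads: Psmb9 and Psmc3ip lie near the 3-read limit.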
